A study of Mus musculus with 4 samples.

Results

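The cytosolic ribosomal protein genes of the mouse were taken as all protein coding genes whose symbol is *Rpl* or *Rps* followed by a number and at most a single letter (a, x, l or y) and a single further digit. The rule found 79 genes, 31 named for the small subunit and 48 for the large subunit, among 39179 genes in the deposited counts, of which 37607 had a symbol. A further 5 genes with such a symbol were annotated as pseudogenes and left out. The cell line, B16F1, comes from a mouse melanoma. The tumor repopulating cells (TRCs) are B16F1 cells that grew into spheroids from single cells inside a soft 3D gel of fibrin. RNA was sequenced from parental cells and from fibrin-derived TRCs, with 2 libraries in each group that are numbered 1 and 3, with no drug, transgene or edited allele named for either group. Both groups come from 1 cell line, and the TRCs differ from the control cells in selection and in culture form together, so these cannot be told apart. The sources do not say that the libraries of a group came from separate cultures. Every p-value therefore rests on a spread between these libraries that may be technical.

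Between 35948295 and 43511554 counts fell on genes per library, and levels are given as CPM, counts scaled by the library size after the TMM adjustment. Before that adjustment 3 counts correspond to between 0.0689 and 0.0835 CPM, and floors and intervals of this kind cover counting error only. Non-unique alignments were given to no gene and made up 15.2% of the lines in parental 1 and 17.1% in parental 3. In TRC 1 they made up 18.3% and in TRC 3 25.2%. Marker sums are also given before the TMM adjustment. The melanocyte lineage was present in all libraries: 7 of its markers summed to between 15423 and 19586 CPM in parental cells and between 24552 and 25501 CPM in TRCs. Markers of fibroblasts summed to between 9.62 and 11.8 CPM in parental cells and between 2.92 and 5.84 CPM in TRCs. The 5 leukocyte markers summed to between 1.84 and 4.49 CPM in parental cells and between 1.8 and 1.91 CPM in TRCs. Among them *Cd68* was the highest, and *Adgre1*, *Cd3e* and *Ptprc* had no count in any library.

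Each ribosome is built from a small subunit, which holds the messenger RNA and reads its codons, and a large subunit, which joins amino acids and lets the growing chain out through a tunnel. Nearly all of these proteins are present in equal number in a ribosome, and their mRNAs are among the most abundant of a dividing cell. Most of these mRNAs start with a cytosine and a run of pyrimidines, the terminal oligopyrimidine (TOP) motif, through which the kinase mTOR and the RNA binding protein Larp1 set how much of the mRNA is translated, largely without a change in its amount. Transcription of the genes is known to respond to Myc, which binds the letters CACGTG.

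The sequence at the start site is shown for the members with the lowest and highest fold change, for *Rps27*, *Rps6* and for members in which a long pyrimidine run covers the start. The windows hold 15 bases before the annotated RefSeq start and 15 from the start onward (build GRCm38.p6, 5′ to 3′ on the strand of the gene), and the longest run of C and T within 20 bases of the start is in capitals where the window shows it.
Rpl7l1 (chr17:46782642-46782671, minus strand): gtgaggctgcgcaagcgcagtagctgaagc
Rps27l (chr9:66946071-66946100, plus strand): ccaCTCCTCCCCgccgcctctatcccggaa
Rps27 (chr3:90213634-90213663, minus strand): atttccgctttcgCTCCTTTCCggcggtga
Rps2 (chr17:24720048-24720077, plus strand): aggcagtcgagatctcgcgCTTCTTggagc
Rpl13a (chr7:45128731-45128760, minus strand): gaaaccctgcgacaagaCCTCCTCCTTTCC
Rps6 (chr4:86857353-86857382, minus strand): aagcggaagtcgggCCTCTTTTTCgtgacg
Rps10 (chr17:27635230-27635259, minus strand): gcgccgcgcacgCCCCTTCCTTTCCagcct
Rps18 (chr17:33955651-33955680, minus strand): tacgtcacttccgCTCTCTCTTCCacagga
Rpl7a (chr2:26910792-26910821, plus strand): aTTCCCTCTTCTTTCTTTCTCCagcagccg
Rpl27a (chr7:109519180-109519209, plus strand): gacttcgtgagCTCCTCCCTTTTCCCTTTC
Rpl35 (chr2:39005117-39005146, minus strand): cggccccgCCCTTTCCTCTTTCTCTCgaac
In *Rps27*, *Rps6*, *Rps10*, *Rps18*, *Rpl7a*, *Rpl27a* and *Rpl35* the run covered the start base, whereas in *Rpl7l1* the longest run had 3 bases, lay ahead of this window and did not cover the start. The *Rps27l* start shown is 1 of 2 in the table, and its run ended before the start base.

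A start site sequence was found for 60 of the 79 members, with 72 starts in all, and 19 members had no entry. In 15 of these 72 windows (20.8%) the longest pyrimidine run within 20 bases of the start had at least 8 bases and covered it. The same held for 403 of 11389 starts of the other genes tested (3.54%) and 1193 of all 32851 starts (3.63%). These counts leave out shorter runs, such as the 7 bases over a start of *Rps21*, and runs that begin just past the annotated base. A run over the start is also left out where a longer one lies nearby, as in *Rps15a*. The counts are for these reasons too low for runs over the start. They are not the share of genes with a TOP motif. The E-box CACGTG, which reads the same on both strands, lay within the 300 bases around the start in 8 member windows (11.1%) and in 10.3% of the other tested genes' windows. The letters CCGGAAG, the core bound by ETS factors such as GABP, were present on either strand in 25 member windows (34.7%) and in 18.2% of the others. These matches describe letters only. The 15 tested members in which the longest run had at least 8 bases and covered a start had a median log2 fold change of -0.02 (TRC over parental). The 42 other tested members with an entry had 0.01. Those 42 include *Rpl13a*, with a run of 14 bases from 2 bases past the start base, and *Rpl18*, with 10 bases from 1 base past it. *Rps15a* is also among them, with a run over its start that is shorter than another nearby. The 2 groups therefore do not separate members with and without a TOP motif.

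Only 1 ribosomal protein gene was called different between TRCs and parental cells by the main test. That test draws the spread of each gene toward the spread shared by all genes. Of the 79 members, 76 passed the filter on low counts and were tested, all 31 of the small subunit and 45 of the large subunit. With edgeR's exact test and Benjamini-Hochberg FDR under 0.05, 1 member, *Rpl7l1* of the large subunit, was lower in TRCs and none was higher. Over all 11483 genes tested, 7.05% were lower and 8.81% higher, 15.9% in either direction, and among the 2391 other genes with a mean of at least 100 CPM 17.0% were called. At an unadjusted p under 0.05, 2 members passed, *Rpl7l1* and *Rps27l*, against 28.0% of all genes. The quasi-likelihood test of edgeR called no member (9.18% of all genes), and the Wald test of DESeq2 called *Rpl7l1* alone (17.7% of all genes).

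In the small subunit 0 of 31 members were called in either direction, and 1 passed an unadjusted p under 0.05. The median log2 fold change of the small subunit was 7.3e-06, with a range from -0.51 to 0.22. In the large subunit the median was 0.012, with a range from -0.66 to 0.32. Over all genes tested the median was 0.0034. The SD of the log2 fold change was 0.17 for the small and 0.18 for the large subunit, 0.71 over all genes and 0.58 over the other genes with at least 100 CPM. A fold change of less than 1.5 in either direction was seen in 75 of 76 members (98.7%). It was seen in 79.4% of the other genes with at least 100 CPM and in 71.6% of all genes tested. Those other genes had a median level of 168 CPM against 483 CPM for the members, so they are not matched in level. A p above the threshold does not show equal levels: the 95% intervals of DESeq2 lay within a log2 fold change of 1 on both sides for all 31 small subunit members and for 43 of 45 of the large subunit, with a median standard error of 0.21.

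**Figure D1:**
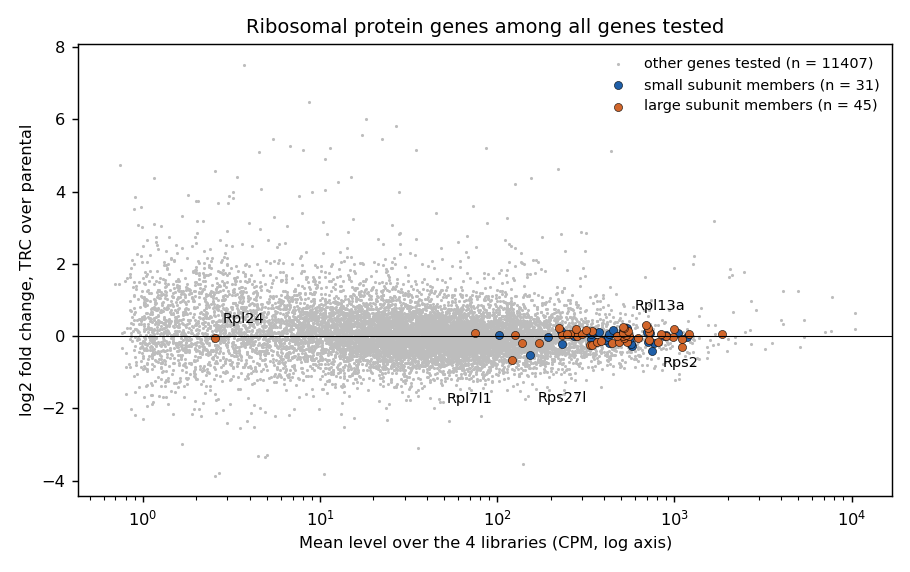
Log2 fold change (TRC over parental, vertical axis) against the mean level over the 4 libraries (CPM, log axis) for small subunit members (blue, n = 31), large subunit members (orange, n = 45) and the other genes tested (grey). The members lie in a narrow band between -0.66 (*Rpl7l1*) and 0.32 (*Rpl13a*), inside a grey cloud that reaches from -3.86 to 7.52.

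Libraries of 1 group differed from each other in the same direction for nearly all members. In parental cells replicate 3 was above replicate 1 in 74 of 76 members, with a median difference of 0.17 on the log2 scale, and in TRCs in 71 of 76, with a median of 0.29. Over all genes these medians were 0.0042 and 0.00068, and over the 2391 other genes with at least 100 CPM 0.14 and 0.056. The parental offset of the members was thus close to that of these 2391 genes. Relative to each gene's parental mean, the median of the small subunit was -0.088 in parental 1, 0.088 in parental 3, -0.16 in TRC 1 and 0.13 in TRC 3. The large subunit followed with -0.075 and 0.075 in parental cells and -0.10 and 0.14 in TRCs. The 2 TRC libraries therefore lay on either side of the parental pair, and the groups overlapped. Without TRC replicate 3, the library with the most non-unique alignments, the medians were -0.17 for the small and -0.11 for the large subunit, and without TRC replicate 1 they were 0.11 and 0.13. In either case no member was called.

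**Figure D2:**
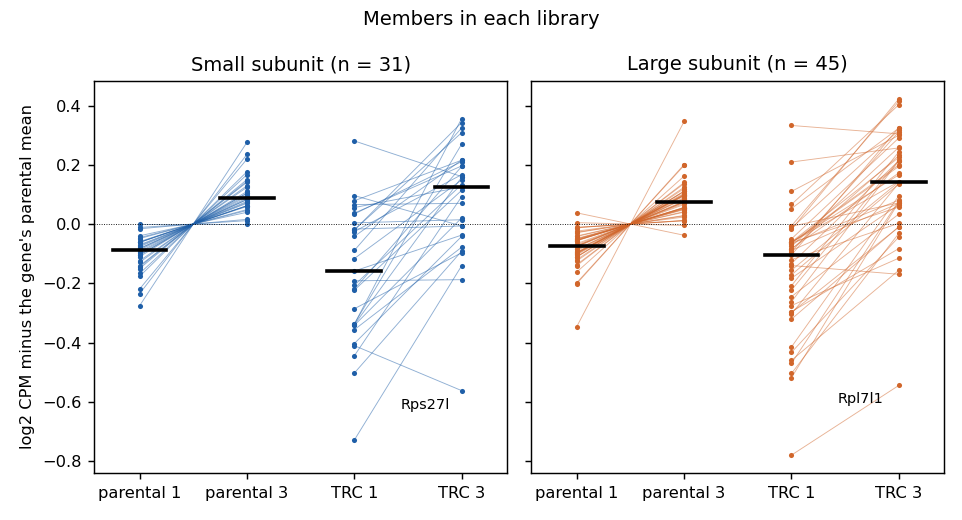
Level of each member in each library (log2 CPM minus the gene's mean over the parental libraries) for the small (left, n = 31) and large subunit (right, n = 45). Lines join the 2 libraries of a group and black bars are medians. The medians of the TRC libraries lie below and above those of the parental pair, and *Rps27l* and *Rpl7l1* lie lowest in TRC 3.

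Both TRC libraries were below both parental libraries in 9 of 76 members, against 30.4% of all genes tested, and above both in 5, against 30.2%. The 9 lower members included *Rpl7l1*, *Rpl8*, *Rpl14*, *Rps27l* and *Rps27a*, and the 5 higher ones were *Rpl13a*, *Rpl28*, *Rpl3*, *Rps15a* and *Rps24*. Of these 14 genes only *Rpl7l1* passed the FDR threshold.

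As a share of all counts on genes, the small subunit took 1.56% in parental 1, 1.69% in parental 3, 1.49% in TRC 1 and 1.63% in TRC 3. The large subunit took 2.34% and 2.47% in parental cells and 2.2% and 2.54% in TRCs. Counting error was far smaller than these gaps, with Wilson 95% intervals at most 0.0102 percentage points wide. The mean share of the small subunit was 1.63% ± 0.089 (SD, n = 2) in parental cells and 1.56% ± 0.0998 in TRCs (exact permutation test, two-sided, p = 0.667). For the large subunit the means were 2.41% ± 0.0911 and 2.37% ± 0.24 (exact permutation p = 1). Without TRC replicate 1 the difference of the large subunit turned from -0.0391 to 0.131 percentage points. With all alignment lines, the non-unique ones included, as the denominator, the differences were -0.14 for the small and -0.165 for the large subunit. On that scale both TRC libraries lay below both parental ones, at 1.14% and 1.16% against 1.25% and 1.33% for the small subunit and at 1.68% and 1.8% against 1.87% and 1.95% for the large subunit. With 2 libraries a group the smallest p this test can give is 0.333. The counts of the large over the small subunit stood at 1.5, 1.46, 1.47 and 1.56 in parental 1 and 3 and TRC 1 and 3, so the balance of the subunits did not separate the groups (exact permutation p = 0.667). In bulk RNA, fewer cells with much ribosomal protein mRNA and less of it per cell cannot be told apart.

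*Rpl7l1* (ENSMUSG00000063888, chromosome 17, 46773907 to 46782672, minus strand, GRCm38), a paralog of *Rpl7* whose protein is found on precursors of the large subunit, was the single member that fell. Its level was 134 and 162 CPM in parental replicates 1 and 3 and 85.8 and 101 CPM in TRC replicates 1 and 3. Both TRC libraries were below both parental libraries. The mean went from 148 ± 19.4 CPM (SD, n = 2) to 93.4 ± 10.7 CPM, a log2 fold change of -0.66 with a standard error of 0.22 and an FDR of 0.0334 by edgeR's exact test. The call was lost with the quasi-likelihood test (FDR 0.0627). It was also lost without parental replicate 3 (log2 fold change -0.52, FDR 0.265), without TRC replicate 1 (-0.57, FDR 0.323) and without TRC replicate 3 (-0.79, FDR 0.111). Its canonical counterpart *Rpl7* had 781 and 869.7 CPM in parental cells and 778 and 929 CPM in TRCs, with overlapping groups and a log2 fold change of 0.049 (FDR 0.921). *Rpl7l1* therefore stood at 17.2% and 18.6% of the CPM of *Rpl7* in parental cells and at 11% and 10.9% in TRCs, without overlap (exact permutation p = 0.333, the smallest possible).

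*Rps27l*, the paralog of the small subunit gene *Rps27* and known as a gene that p53 induces, had 146 and 214 CPM in parental replicates 1 and 3 and 133 and 119.7 CPM in TRC replicates 1 and 3. The groups did not overlap, but the parental libraries differed more from each other than the lower of them from the TRC libraries. The log2 fold change was -0.51 with a 95% interval from -0.99 to -0.024 (unadjusted p = 0.0437 by edgeR's exact test, FDR 0.163). Without parental replicate 1 it was -0.76 (FDR 0.0305) and without parental replicate 3 -0.20 (FDR 0.775). *Rps27* itself had 212 and 224 CPM in parental cells and 215 and 269.9 CPM in TRCs, a log2 fold change of 0.15. The ratio of *Rps27l* to *Rps27* was 68.6% and 95.3% in parental cells and 61.7% and 44.4% in TRCs. *Rps27* shared 98.4% of its 101-base windows with other annotated transcripts, and *Rps27l* none, so the level of *Rps27* is the less certain of the pair.

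*Rpl22l1*, the paralog of *Rpl22*, had 74.3 and 70.5 CPM in parental cells and 69.4 and 84.6 CPM in TRCs, and its log2 fold change was 0.089 with an interval from -0.33 to 0.51. *Rpl22* had 287 and 309 CPM in parental cells and 295 and 371 CPM in TRCs (log2 fold change 0.16), and the ratio of the pair lay between 22.8% and 25.9% in all libraries. *Rpl36al*, whose symbol the rule does not take, had 105 and 118 CPM in parental cells and 100.5 and 117 CPM in TRCs beside 114 and 133 and then 118 and 136 CPM for *Rpl36a*. Neither of these pairs passed the test. *Rpl3l*, *Rpl10l* and *Rpl39l*, the copies best known from striated muscle and the testis, had no count in any library and were not tested.

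**Figure D3:**
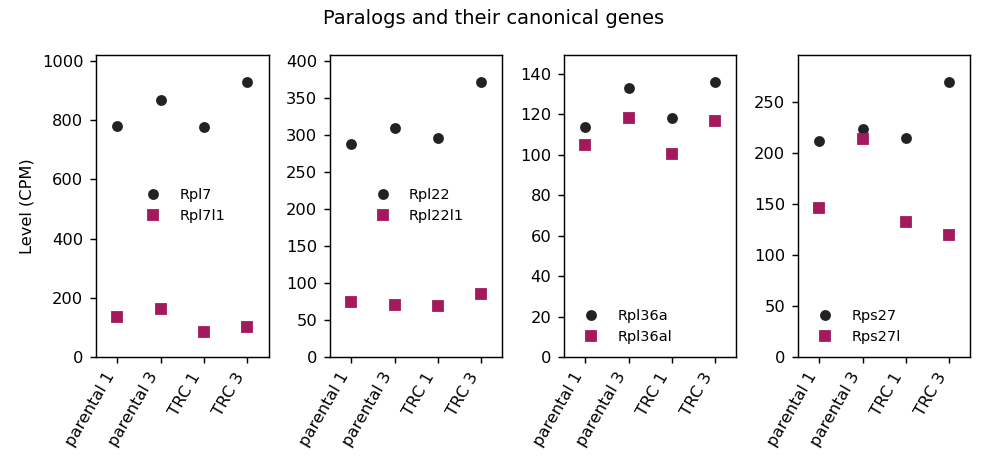
Level (CPM) in each library of 4 paralogs (squares) and their canonical genes (circles), with axes that start at 0. *Rpl7l1* and *Rps27l* are lower in both TRC libraries than in both parental ones, while *Rpl7*, *Rps27*, *Rpl22l1* and *Rpl36al* overlap between the groups.

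Apart from the paralogs, the lowest and highest fold changes of each subunit were modest and none passed the test. *Rps2*, which lines the entry of the mRNA path, had 771 and 942 CPM in parental replicates 1 and 3 and 514 and 773 CPM in TRC replicates 1 and 3, so that TRC 3 lay within the parental range. Its log2 fold change was -0.41 with an interval from -0.91 to 0.084 (FDR 0.299), and 64.5% of its windows were shared with other annotated genes, among them 35 pseudogenes. *Rps15a* had the highest value of the small subunit at 0.22 (498 and 506 CPM against 609.8 and 561 CPM, FDR 0.563), followed by *Rps14*, a protein along the mRNA path, at 0.17 (397 and 455 CPM against 419 and 539 CPM). *Rps15a* did not overlap between the groups and *Rps14* did.

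In the large subunit *Rpl8*, which reaches the peptidyl transferase region, was second to *Rpl7l1* at -0.30. It had 1129 and 1304 CPM in parental cells and 882 and 1089 CPM in TRCs, with an interval from -0.71 to 0.11 (FDR 0.424). The highest value was that of *Rpl13a*, with 600.5 and 624 CPM in parental cells and 771 and 756 CPM in TRCs, a log2 fold change of 0.32 with an interval from -0.033 to 0.67 (FDR 0.363). The 2 groups of *Rpl13a* were each tight and did not overlap, but 55.1% of its windows also lie in an overlapping annotated gene.

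Members were also grouped by role. The 8 members near the decoding site and the mRNA path had a median log2 fold change of 0.031, and the 7 of the head and beak of the small subunit -0.071. *Rps6*, the substrate of the S6 kinases downstream of mTOR, had 357 and 389 CPM in parental cells and 294 and 378 CPM in TRCs, a log2 fold change of -0.15 with an interval from -0.57 to 0.27. In the large subunit the 3 members that reach the peptidyl transferase region had a median of -0.0094 and the 8 members around the exit tunnel 0.033. *Rpl5* and *Rpl11*, which carry the 5S rRNA and can bind Mdm2, stood at 0.22 and 0.094. *Rpl5* had 653 and 663 CPM against 649.7 and 882 CPM, and *Rpl11* 450.3 and 547 CPM against 471 and 594 CPM, so both overlapped between the groups. *Rpl12*, at the base of the stalk to which translation factors bind, stood at -0.068. None of these members was called.

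Measured levels per length of transcript ranged widely. Per kilobase of the shortest complete principal transcript, the highest were *Rpl32* (2307 CPM per kb in parental cells and 2398 in TRCs), *Rps24* (2169 and 2309.9) and *Rpl31* (1420.4 and 1544). The lowest were *Rpl24* (3.83 and 3.71), *Rpl7l1* (113 and 71.3) and *Rps20* (113 and 106). The order of *Rps20* rests on an annotated transcript of 3706 bases, which lowers its value per kilobase. *Rpl24* had 1.98 and 3.20 CPM in parental cells and 2.41 and 2.62 CPM in TRCs, far below every other tested member by level. Of its windows, 75.7% occur letter for letter in other annotated genes and 66.7% in an overlapping gene. *Rps27*, with 98.4% of its windows copied, and *Rpl10*, with 91.6%, had means of 218 and 555 CPM in parental cells. The part of the copies in the low count of *Rpl24* was not tested.

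Copies of ribosomal protein genes are a limit for the whole family. At least 1 window of 101 bases, the read length, was found in another annotated transcript for 70 of 76 tested members, and for 31 members the copied share was at least 50%. The mouse annotation holds 227 pseudogenes named after a member, and those with counts took between 0.00637% and 0.00877% of the counts on genes. Pseudogenes of members that bear other names are not in this share. The 31 members with at least 50% of their windows copied had a median log2 fold change of -0.015, with 0 called. The 45 less copied members had 0.017, with *Rpl7l1* called, and 2.15% of its own windows were copied. Over the 76 members, which share all 4 libraries, Pearson's r between the copied share and the fold change was 0.0275. Between the copied share and the difference of TRC replicate 3 over replicate 1 it was 0.227, and the median of that difference was 0.33 for the more copied and 0.27 for the less copied members. How many of the non-unique alignments, more frequent in both TRC libraries than in both parental ones, came from members was not tested. With those lines in the denominator, the members took 3.12% in parental 1, 3.28% in parental 3, 2.82% in TRC 1 and 2.96% in TRC 3, without overlap between the groups.

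Between the TRC libraries, members on chromosome 7 lay closer together than members elsewhere. The 63 tested members elsewhere were higher in TRC replicate 3 than in replicate 1 in 62 cases, with a median difference of 0.33 on the log2 scale. The 13 members on chromosome 7 were higher in 9 cases, with a median of 0.0079, and in *Rps15a* (-0.12), *Rps3* (-0.10), *Rpl13a* (-0.028) and *Rpl18* (-0.028) TRC replicate 3 was the lower of the pair. Other genes on chromosome 7 had a median of -0.23 over 797 genes against 0.016 over 10525 genes elsewhere. Chromosome 7 was not alone in this: the other genes of chromosome 14 had a median of -0.25, and those of chromosomes 11 and 17 had 0.17 and 0.19. The 2 members on chromosome 14 had a median of 0.13. Between the parental libraries the members had a median of 0.16 on chromosome 7 and 0.17 elsewhere. In the comparison of TRCs with parental cells, the other genes on chromosome 7 had a median log2 fold change of 0.18 against -0.0083 elsewhere, and the members had 0.065 and -0.0049. *Rpl13a*, *Rpl28* and *Rps15a*, 3 of the 5 members above both parental libraries in TRCs, lie on this chromosome. They are 3 of 13 members there, while 323 of the 797 other genes on chromosome 7 and 30.2% of all genes tested lay above both parental libraries. The part of this offset in their values was not tested.

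**Figure D4:**
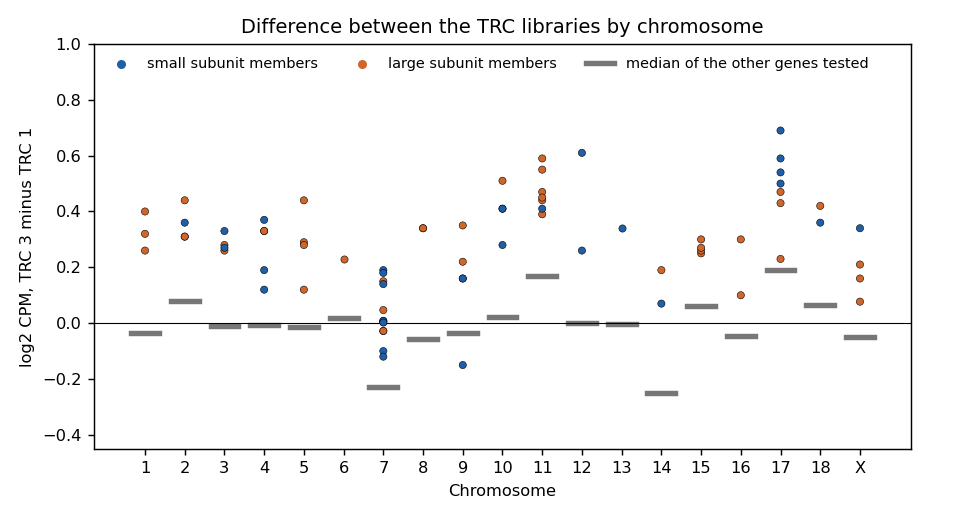
Difference between the TRC libraries (log2 CPM, replicate 3 minus replicate 1) of each member by chromosome, with small subunit members in blue, large subunit members in orange and the median of the other genes tested as a grey bar. The 13 members on chromosome 7 lie around 0, and the members of most other chromosomes lie above it.

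Of the tested members, 28 have an annotated small nucleolar RNA within the bounds of the gene, a class of RNA that guides the modification of ribosomal RNA. Their median log2 fold change was 0.024, with a range from -0.41 to 0.32, and 0 were called. The 48 members without one had a median of -0.0087. *Rpl13a* hosts 4 of these RNAs and *Rpl4* 5. *Rpl4*, which lines the exit tunnel, had 1682 and 1959 CPM in parental cells and 1655 and 2105 CPM in TRCs, a log2 fold change of 0.046.

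Other genes of the ribosome and of translation were listed beside the members. These lists were chosen with earlier results of these data known, so their shares only describe them. Of 8 ribosomal proteins whose symbols the rule does not take, such as the stalk proteins *Rplp0*, *Rplp1* and *Rplp2*, 0 passed the exact test, and their median log2 fold change was -0.11. *Fau*, which encodes a small subunit protein fused to a ubiquitin-like part, was the highest at 0.48 (121 and 148 CPM against 147 and 226 CPM, FDR 0.222 by the exact test).

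Factors with TOP mRNAs, which share the start motif of the members, had a median of 0.032 over 18 genes, and 2 of them fell in TRCs, against 7.05% of all genes. These were *Npm1*, a histone and ribosome assembly chaperone, at -0.79 (FDR 0.0154) and *Nap1l1*, a histone chaperone, at -0.76 (FDR 0.0107, edgeR's exact test), and the quasi-likelihood test called *Nap1l1* alone. The copied share of windows was 21.9% for *Npm1* and 71% for *Nap1l1*. A further list, named for initiation, elongation and release factors, held 22 genes. Of these 8 fell and none rose, with a median of -0.51, against 7.05% lower over all genes. *Eef1e1* (-0.69), among the 8, is such a factor by its symbol only. *Eif3j1*, *Etf1*, *Eif3g* and *Eif2s1* were the 4 with the smallest FDR, with log2 fold changes of -0.89, -0.85, -0.73 and -0.74. Their copied shares were 40.2%, 0%, 0% and 1.27%. The quasi-likelihood test called 3 of the 22 (9.18% of all genes), and *Eif2s1* was not among them (FDR 0.0563). Each of the 4 lost its call when at least 1 library was left out: *Eif3j1* without TRC replicate 1 (log2 fold change -0.75), and the other three without parental replicate 3, TRC replicate 1 or TRC replicate 3, with FDR from 0.0561 to 0.28. *Npm1* lost it without parental replicate 3 or TRC replicate 1 (FDR 0.221 and 0.26), and *Nap1l1* without parental replicate 3, TRC replicate 1 or TRC replicate 3 (0.128, 0.153 and 0.0753).

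Of 9 chaperones of ribosomal proteins and proteins of the 5S particle, 5 fell and none rose, against 7.05% lower over all genes. Their median log2 fold change was -1.09. This list too was chosen with earlier results known, so its share is no test of the list. The quasi-likelihood test also called 5. *Rrs1*, which with Rpf2 brings the 5S particle into the large subunit, had 129 and 134 CPM in parental cells and 59.4 and 50.9 CPM in TRCs (log2 fold change -1.25, FDR 2.06e-06 by edgeR's exact test). *Heatr3*, which carries Rpl5 into the nucleus, stood at -1.18, *Grwd1*, the chaperone of Rpl3, at -1.23, and *Pdcd2*, the chaperone of Rps2, at -1.21. The fifth, named after its values were seen, was *Tsr2*, the chaperone of Rps26, at -1.09 (FDR 0.0109 by edgeR's exact test). Its level was 21.4 and 23.9 CPM in parental cells and 8.85 and 12.4 CPM in TRCs. With a block for the replicate number, the quasi-likelihood test called 4 of the 9, without *Tsr2* (FDR 0.0532). Of the windows of *Pdcd2* and *Tsr2*, 52.4% and 23.5% lie in an overlapping annotated gene. *Grwd1* lost its call without parental replicate 3 (FDR 0.109) and without TRC replicate 3 (0.0504), while *Rrs1*, *Heatr3* and *Pdcd2* kept theirs with any 1 library left out. Their client genes stood at 0.22 for *Rpl5*, 0.19 for *Rpl3*, -0.41 for *Rps2* and 0.12 for *Rps26*, none of them called.

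Of 17 genes that control TOP mRNAs, 15 were tested and 1 fell and 1 rose, against 15.9% of all genes in either direction. *Larp1* had 405 and 373 CPM in parental cells and 211 and 214 CPM in TRCs (log2 fold change -0.87, FDR 0.00221 by the exact test), and the call was lost without TRC replicate 1 (FDR 0.0658) or TRC replicate 3 (0.0508). *Ddit4*, an inhibitor of mTOR, had 36.7 and 14.9 CPM in parental cells and 77 and 118 CPM in TRCs (log2 fold change 1.91, FDR 1.37e-05), and without parental replicate 1 its log2 fold change was 2.71. *Mtor* itself was not called, at -0.19. Among 4 genes of the p53 branch that free ribosomal proteins act on, *Trp53* (-1.06) and *Mdm2* (-0.71, FDR 0.0132) fell, and *Cdkn1a* (0.57) and *Mdm4* (0.047) did not pass the test, against 7.05% lower over all genes. *Mdm2* lost its call without parental replicate 3, TRC replicate 1 or TRC replicate 3 (FDR 0.0569, 0.161 and 0.131). *Cdkn1a* stood at 1.05 without TRC replicate 1 (FDR 0.0103) and at -0.21 without TRC replicate 3. *Mdm4* stood at 0.47 without parental replicate 1 and at -0.28 without parental replicate 3. *Rps27l* at -0.51 stands beside these values, and no relation between them was tested.

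**Figure D5:**
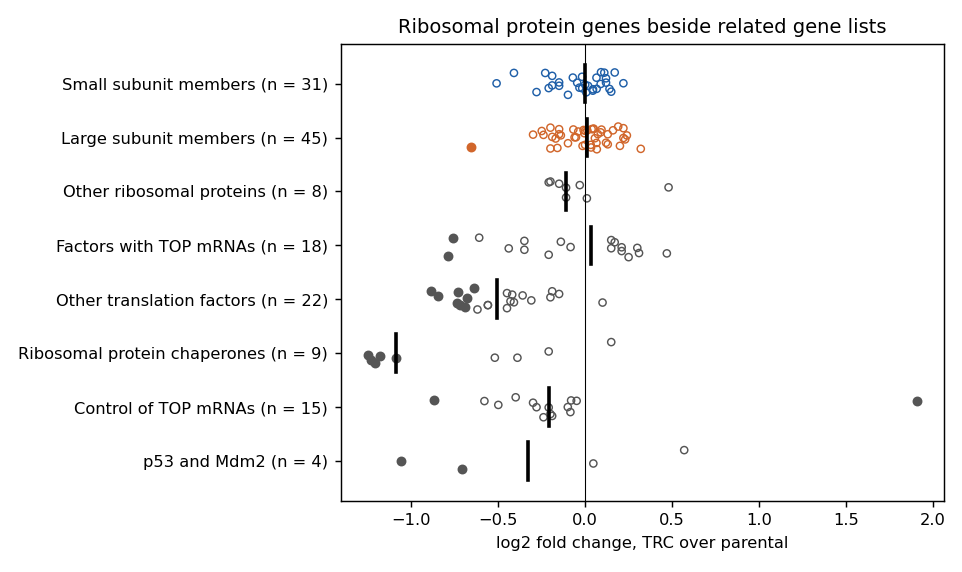
Log2 fold change (TRC over parental) of the small subunit (blue) and large subunit members (orange) and of 6 related gene lists (grey). Each circle is a gene, filled where the FDR of the exact test is under 0.05, and black bars are medians. The members gather around 0 with 1 filled circle, while the chaperones have a median of -1.09 and the other translation factors of -0.51. The lists were chosen with earlier results of these data known.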

How the data were processed

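RNA-seq libraries (stranded, polyA RNA) were made from parental B16F1 cells and TRCs, 2 of each. The authors used Trimmomatic 0.35 for trimming, TopHat2 2.1.0 for alignment of single-end reads to GRCm38 (versions from the submitters' processing notes) and htseq-count with Ensembl genes, so the deposited values are raw counts per gene. The mode and strand setting of the counting are not given in the sources used here. Genes under 1 CPM in at least 3 samples were removed, TMM factors were computed over genes only, and edgeR 4.0.16 (R 4.3.3, prior count 0.125) gave tagwise dispersions and the exact test, with Benjamini-Hochberg FDR under 0.05 over all 11483 genes. CPM are counts scaled by the TMM-adjusted library size, but the filter, the floors and the marker sums used CPM without that adjustment. Standard errors and 95% intervals came from DESeq2 1.42.0. Library differences used CPM plus 0.5.

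Symbols, positions and transcripts came from GENCODE M21. Copied windows were 101-base stretches of a member's transcript present letter for letter in annotated transcripts of other genes, so unannotated copies are missed. Start sites came from RefSeq (GRCm38.p6). The members and gene lists were chosen with earlier results of these data known. Named were all called members, the 2 highest and 2 lowest of each subunit, the 3 highest and 3 lowest levels per kilobase, paralogs, members not tested, and up to 4 genes with the smallest FDR from each other list. Some genes that this rule selects are not reported here. Genes described by role, start sequence, snoRNA or chromosome were added to these after their values were seen. The test scripts were tested on simulated data. Alternatives were other filters, other normalizations, quasi-likelihood tests, DESeq2's Wald test and added counts of pseudogenes named after a member. Further ones were another denominator for shares and each library left out in turn.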

Additional observations from a re-analysis of the deposited data

Results flagged for a closer look

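Alignments that were not unique, which were counted for no gene, made up 18.3% of the lines in TRC replicate 1 and 25.2% in TRC replicate 3, above both parental libraries (15.2% and 17.1%). They bear on members with copies elsewhere in the genome, and their part in the values of these members was not tested.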

How the results depend on the processing

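No member was higher in TRCs under any of the 14 alternatives. The count of small subunit members lower in TRCs was 0 in the main setting and 1 with the replicate block and a correction for GC content and length (*Rps2*, FDR 0.0421 by edgeR's quasi-likelihood test). With a library left out it ranged from 0 to 1, and the 1 was *Rps27l* without parental replicate 1. The count of large subunit members lower was 1 in the main setting and 0 with the quasi-likelihood test, alone or with the replicate block, and with a library left out it ranged from 0 to 1. The cause was not tested. The median of the small subunit ranged from -0.17 to 0.11 with a library left out, and that of the large subunit from -0.11 to 0.13. The replicate block called 785 genes, and *Rpl7l1*, *Ddit4* and *Mdm2* had FDRs of 0.0638, 0.0521 and 0.0562. Deviations of same-numbered libraries had r = 0.0267 over all genes and -0.0711 over members. Because r leaves out a shift shared by the genes, it cannot decide whether the replicate numbers pair the samples. Calls over all genes were 1822 in the main setting, 1054 with the quasi-likelihood test, 863 without parental replicate 3 and 773 without TRC replicate 1 and also without TRC replicate 3. The share of calls that were higher was 55.5%, 60.8% with the quasi-likelihood test and replicate block, and 45.1% with the GC and length correction added to that fit. In fits with a library left out, the lone library is assumed to vary like the other group. Of 658 values of 47 named genes under the alternatives, 617 kept their side of the threshold, 33 lost a call and 8 gained one.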
